A study of Mus musculus with 7 samples.

Results

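The probes described here are those that the array carries for long intergenic noncoding RNAs (lincRNAs), which are spotted by genome interval and strand rather than by gene. They were chosen as non-control probes whose description begins with lincRNA, or whose name is an interval on mm9 with F or R for the strand, leaving out the sex chromosomes. That gave 15664 of the 55681 non-control probes, in 3400 intervals and 4442 interval strands, and overlapping intervals merge into 2131 loci. A further 587 lincRNA probes of 155 intervals on the X chromosome were left out. Of the probes kept, 60 carry a name such as NEAT1 or HOTAIR in place of an interval. Each probe is 60 bases long, an interval strand has 1 to 10 of them with a median of 3, and 1042 intervals have probes on both strands.

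RNA came from mouse CD8 T cells of lymph node, heterozygous for the OT-1 transgene, whose T cell receptor binds a peptide of ovalbumin named SIINFEKL, and Rag-/-, so that no other T or B cell receptors are made. There were 4 arrays labelled WT and 3 labelled Lck-/-, described as biological replicates, and all cells had been cultured with 100 nM SIINFEKL for 24 h. In the Lck-/- mice, which lack the kinase that starts T cell receptor signalling, an inducible Lck had been turned off by 7 days without doxycycline in the diet. The labels give no doxycycline for the WT mice, so effects of feeding or of the construct and effects of Lck loss cannot be told apart.

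Many lincRNAs were first mapped as chromatin domains that carry promoter marks at the start and elongation marks along the body, away from known genes. Such a domain gives an interval but often neither the exons nor the strand, and for that reason arrays tile several probes over an interval and often spot both strands. Some lincRNAs are nuclear scaffolds, such as Neat1, on which paraspeckles are built, and Malat1, which lies in nuclear speckles, while for most intervals no function is known.

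Signals are log2 of the processed intensity relative to the 75th percentile of the same array, so 0 is that percentile, and differences are Lck-/- minus WT. Probes bind RNA with different strength, so comparisons rest on flags and on differences between groups, and an order of probes by signal serves only to choose which to name. The Lck probe, which checks the labels, read 7.44, 7.67, 7.36 and 6.04 on WT arrays 1 to 4 and 8.02, 6.21 and 6.17 on Lck-/- arrays 1 to 3. The array labelled WT 4 was thus low and the array labelled Lck-/- 1 high, against their labels, and the main differences are also given without both. Whether the probe lies in a deleted or replaced part of Lck was not analysed here. Of the CD8 T cell markers, 9 of 10 were on the array and all 9 were well above background on every array, and of the 8 B cell markers Cd79a, Cd79b and Fcer2a were above background on all 7, Cr2 on 6 and Ms4a1 on none. The 4 B cell markers tested had positive differences with a median of 0.50, none at an unadjusted p under 0.05 in limma, and their part in the results below was not tested. No spot was saturated, and correlations between arrays ran from 0.979 to 0.990. The array labelled WT 4 correlated at 0.990 with Lck-/- 2 and 0.988 with Lck-/- 3, and at most at 0.984 with another WT array. The array labelled Lck-/- 1 correlated best with WT 3, at 0.989, then with Lck-/- 3, at 0.987, and at 0.981 to 0.983 with the others. Whether these 2 samples were exchanged was not tested.

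The probe sequences below carry what follows, each 5′ to 3′ as deposited. The first set holds 2 of the 10 probes named for their signal, with capitals for the run of bases they share with a probe of a protein-coding gene on another chromosome, in order Rps29 and Mif.

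chr7:108209996-108216032_R: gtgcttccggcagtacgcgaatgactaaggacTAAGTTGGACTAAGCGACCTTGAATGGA
chr17:48068261-48087905_F: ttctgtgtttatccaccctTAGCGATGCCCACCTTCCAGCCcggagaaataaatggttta

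The next sets are 3 strand pairs that are exact reverse complements of each other, shown because only the forward probe gave signal. Capitals in the first of them mark a run shared with an Hspe1 probe, and the other probes have none.

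chr12:82495575-82516300_F: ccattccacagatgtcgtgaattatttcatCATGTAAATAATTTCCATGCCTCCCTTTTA
chr12:82495575-82516300_R: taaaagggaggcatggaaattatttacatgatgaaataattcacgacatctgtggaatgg
chr14:67585234-67596823_F: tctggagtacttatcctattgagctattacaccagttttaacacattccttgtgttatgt
chr14:67585234-67596823_R: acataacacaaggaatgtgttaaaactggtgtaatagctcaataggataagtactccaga
chr17:24152225-24169870_F: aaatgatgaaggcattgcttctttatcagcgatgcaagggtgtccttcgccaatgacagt
chr17:24152225-24169870_R: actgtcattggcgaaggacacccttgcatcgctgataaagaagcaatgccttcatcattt

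The last sets hold a NEAT1 probe, a probe of an interval within NEAT2 (Malat1) and a forward and a reverse probe of a chromosome 15 interval whose strands behaved differently. Capitals in the NEAT1 probe mark the letters AATAAA.

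NEAT1: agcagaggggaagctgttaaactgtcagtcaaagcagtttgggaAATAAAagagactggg
chr19:5801802-5802597_R: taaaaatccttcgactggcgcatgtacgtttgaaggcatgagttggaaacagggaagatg
chr15:59966962-59972812_F: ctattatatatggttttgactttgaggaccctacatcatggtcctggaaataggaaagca
chr15:59966962-59972812_R: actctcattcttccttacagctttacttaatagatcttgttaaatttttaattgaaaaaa

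The lincRNA probes gave signal less often than the other probes of the array, on each of the 7 arrays. The share of them well above background was 27.8%, 31.8%, 41.9% and 32.3% on WT arrays 1 to 4 and 50.0%, 33.5% and 39.5% on Lck-/- arrays 1 to 3. The groups overlapped, and the highest share was on the array labelled Lck-/- 1. The WT mean was 33.5% ± 6.0 (SD, n = 4), and the Lck-/- mean of 41.0% ± 8.33 (SD, n = 3) was higher by 7.54 percentage points, which did not exceed the spread between arrays (two-sided exact permutation test, p = 0.229, where the smallest possible p is 0.0286). Without the arrays labelled WT 4 and Lck-/- 1 the difference was 2.66 points. The other probes had 56.1% ± 3.54 in WT and 60.4% ± 4.30 in Lck-/-, a difference of 4.32 points (two-sided exact permutation test, p = 0.2). Counted over interval strands with at least 1 probe above background, the means were 59.7% and 68.2% (two-sided exact permutation test, p = 0.257).

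**Figure D1:**
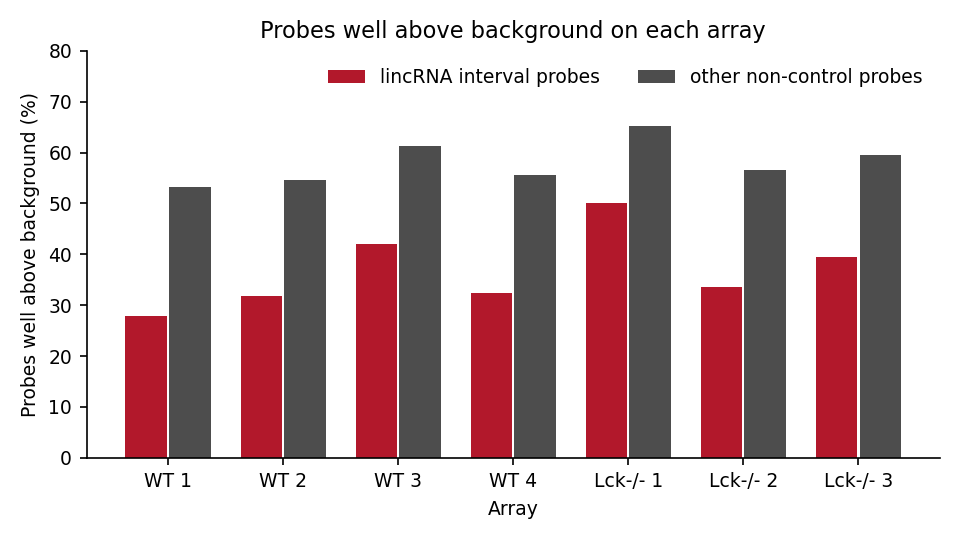
Share of probes well above background (y axis, percent) on each of the 7 arrays (x axis), for the 15664 lincRNA interval probes and the 39430 other non-control probes. The lincRNA bars lie below the others on every array, from 27.8% on WT 1 to 50.0% on Lck-/- 1.

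Of the 15664 lincRNA probes, 6511 (41.6%) were above background on no array and 3840 (24.5%) on all 7. Among the other probes 28.8% were on none and 50.5% on all 7. Probes of 1 interval strand often differed from each other. Of 3271 interval strands with at least 3 probes, 233 had every probe above background on all 7 arrays, 1417 had some and 1621 had none. In 1026 of them a probe above background on all 7 arrays lay beside a probe above background on none, as in HOTAIR, a lincRNA of the HoxC cluster, where 1 of 5 probes was above background on all 7. Of the probes named KCNQ1ot1, after the antisense transcript of an imprinted domain, it was also 1 of 5. They lie on the forward strand, opposite to a Kcnq1ot1 gene probe inside the interval, and whether they read that transcript was not tested. The 1 above background on all 7 read 1.89, 2.47, 1.57 and 2.05 on the WT arrays and 1.83, 2.28 and 1.80 on the Lck-/- arrays. Of NRON, an RNA known as a repressor of the T cell factor NFAT, 2 of 5 probes were above background on all 7 arrays. PINC and lincP21 had no probe above background on 3 or more arrays, and the imprinted H19 had none on all 7. The 5 NEAT1 probes, the 3 NEAT2 (Malat1) probes and the 5 probes of TUG1, a widely expressed nuclear lincRNA, were above background on all 7 arrays.

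What a probe is made of went with whether it gave signal. Of the lincRNA probes under 35% GC, 12.7% were above background on all 7 arrays, and the share was 21.1% at 45 to 50% GC, 36.8% at 50 to 55% and 45.3% at 55% or more. The other probes ran from 42.3% to 62.0% over the same bins, so the lincRNA probes lay lower in every bin. The median GC content was 45% in lincRNA probes and 41.7% in the others. The letters AATAAA, the common polyadenylation signal, stood on the probe's strand in 614 lincRNA probes (3.92%) and in 12.6% of the others, and ATTAAA in 2.50% and 4.55%. On the opposite strand the same motifs, read as TTTATT and TTTAAT, stood in 3.08% and 2.20% of lincRNA probes and in 4.03% and 2.65% of the others. Of the lincRNA probes with AATAAA, 26.9% were above background on all 7 arrays, close to the 24.4% without it. A match to these letters is a description of the sequence and not a polyadenylation site.

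**Figure D2:**
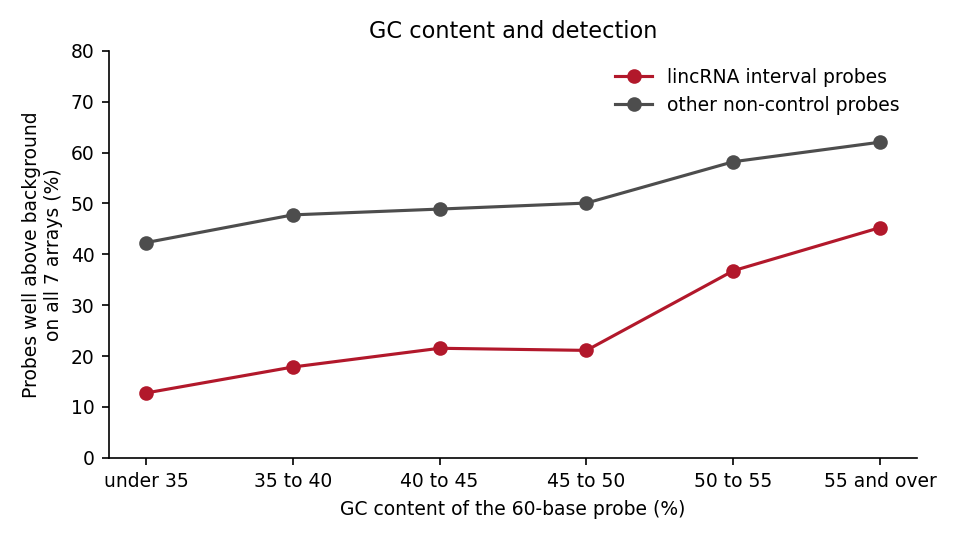
Share of probes well above background on all 7 arrays (y axis, percent) in bins of the GC content of the 60-base probe (x axis, percent), for lincRNA interval probes and other non-control probes. The lincRNA share goes from 12.7% in the lowest bin to 45.3% in the highest, and lies below the other probes in every bin.

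Some lincRNA probes share sequence with a gene probe, and these were above background more often. A run of at least 20 bases in common with a gene-named probe was found in 179 lincRNA probes, matching 147 genes. Of these, 95 (53.1%) were above background on all 7 arrays, against 24.2% of the 15485 without such a run. For 124 of them the gene probe lay inside the interval and 46.0% were above background on all 7, and for 55 it lay outside the interval and 38 (69.1%) were. Of those 55 gene probes, 41 were on another chromosome and 14 on the chromosome of the interval. Among the 10 probes with the highest mean, a rule for naming them, 4 share a run with a gene probe on another chromosome. The probe of chr11:22681800-22707775_R, at chr11:22686751-22686810, shares 45 bases with Rps16, a protein of the small ribosomal subunit. It read 9.26, 9.30, 9.31 and 9.24 on the WT arrays and 9.59, 9.05 and 9.36 on the Lck-/- arrays. The groups overlapped and the difference was 0.06, beside 0.07 for the Rps16 probe itself. The probes shown above for chr7:108209996-108216032_R and chr17:48068261-48087905_F share 28 bases with Rps29, another small subunit protein, and 22 with Mif, a cytokine. A probe of chr2:167085700-167117795_R shares 31 bases with Rps16. The differences of lincRNA and gene probe were 0.02 and 0.07 for the Mif pair, 0.12 and 0.48 for the Rps29 pair and 0.23 and 0.07 for this second Rps16 pair. Over the 39 pairs tested with the gene probe outside the interval, Pearson's r was 0.38 across pairs that share arrays and scaling. Whether such probes report the interval, the gene or both was not tested. There were 44 lincRNA probes identical over all 60 bases to a gene probe, and 43 of these had the same status of being above background on all 7 arrays or not. Over the 25 identical pairs tested on both sides, differences had a Pearson r of 0.89 and a median gap of 0.106, which describes how closely 1 sequence spotted as separate probes read on the same arrays.

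Another bright group lies on chromosome 17. The 20 probes of the overlapping intervals around chr17:39960567-39992817 were above background on all 7 arrays on both strands. In the order of the reference gene table (GRCm38.p6), the genes between the nearest flanking gene probes, of Olfr136 and Pgk2, include Rn18s-rs5, named for 18S ribosomal RNA, and AY036118. The forward probe of chr17:39982023-39983277 read 8.48, 9.42, 9.19 and 8.67 on the WT arrays and 9.19, 8.34 and 9.64 on the Lck-/- arrays. Both groups held low and high arrays, and the difference was 0.12.

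Many intervals with probes on both strands gave signal from both. An interval strand was counted as detected when at least 1 of its probes was well above background on at least 3 arrays. Of the 1042 intervals with both strands spotted, 589 (56.5%) were detected on both, 337 (32.3%) on 1 strand, with 166 on the forward and 171 on the reverse strand, and 116 (11.1%) on neither. The numbers depend on the rule: asking for all 7 arrays gave 352 on both strands, and asking that every probe of the strand pass gave 52. Strands of these intervals have a median of 5 probes, against 3 where only 1 strand was spotted, and were detected in 72.7% against 56.2% of cases. Per probe, the shares above background on all 7 arrays were 25% and 23.8%.

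Exact reverse complements read both strands at 1 position. The array holds 101 such pairs. In 5 of them both probes were above background on all 7 arrays, in 19 only the forward probe was, in 16 only the reverse and in 61 neither. On at least 3 arrays, the rule used for interval strands, the counts were 19 for both, 23 for the forward probe, 18 for the reverse and 41 for neither. In 10 pairs 1 strand was above background on all 7 arrays and the other on none. The forward probe of chr14:67585234-67596823 read 4.42, 4.89, 4.31 and 4.69 on the WT arrays and 4.87, 4.76 and 4.70 on the Lck-/- arrays, while its reverse complement was above background on no array. The forward probe of chr17:24152225-24169870 read 3.03, 2.89, 2.58 and 2.65, then 2.68, 2.71 and 2.48, and its reverse complement was above background on no array. In both pairs only the forward probe was above background, in WT and Lck-/- alike. The pair of chr12:82495575-82516300 behaved likewise, with a forward probe between 6.81 and 7.03 on the 7 arrays, but that probe shares 30 bases with Hspe1, a mitochondrial chaperonin, and the part of Hspe1 in its signal was not tested.

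Over all intervals, 65 had 1 strand with a probe above background on all 7 arrays and the other strand on none. Ordered by signal, the first of these was chr11:35805295-35817263 on the forward strand, 4274 bp from a probe of Tenm2, a teneurin of the cell surface. Its probe read 6.18, 5.80, 5.97 and 5.81 on the WT arrays and 6.88, 5.80 and 5.61 on the Lck-/- arrays. These groups overlapped (difference 0.15). The others of the first 5 were chr17:86560289-86565864 on the reverse strand (difference -0.22), 2171 bp from a probe of the kinase gene Prkce, chr6:11996975-12037300 on the forward strand (-0.04) with Phf14 inside, and the reverse strands of chr4:146507925-146532650 (-0.04) and chr7:50509139-50526856 (-0.13), for which the nearest gene probes are of the zinc finger genes Zfp600 and Zfp715. The chromosome 4 probe shares 58 bases with a probe of Baz1a, a chromatin remodelling gene on chromosome 12, whose difference was -0.07, and the part of Baz1a in its signal was not tested. Of the intervals with a probe on both strands above background on all 7 arrays, those named for the signal of their dimmer strand include chr12:73838608-73862621, with differences of 0.27 on the forward and 0.19 on the reverse strand, and chr17:39960567-39992817, with -0.11 and -0.13. Also named by this rule were chr5:34696192-34722842 (0.80 and 0.03) and chr2:151992806-152025456 (0.21 and 0.13). In the 589 intervals detected on both strands, the mean differences of the strands had a Pearson r of 0.06 and a Spearman rho of 0.09 across intervals, which share arrays and scaling and are not independent.

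Intervals near genes gave signal more often, mainly on the strand of the gene. A probe of a named gene lay inside 582 intervals (17.1%) and within 10 kb of 42.2%, and the median distance was 15112.5 bp. The share of probes above background on all 7 arrays was 30.3% where a gene probe lay inside, 26.2% up to 1 kb, 25.7% from 1 to 10 kb, 23.6% from 10 to 50 kb and 18.4% beyond 50 kb. Inside, it was 38.8% (694 of 1789) for probes on the strand of the gene and 20.7% (331 of 1598) on the other strand. Where several gene probes lay inside an interval, the one with the highest mean signal set the strand of the gene. Whether signal on the strand of the gene came from the gene's own transcript was not tested.

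Differences between the groups followed the same split by strand, with the gene probe again the one of highest mean signal, here among those tested. For 722 lincRNA probes with a gene probe inside the interval on the same strand, the Lck-/- minus WT difference of the lincRNA probe and of the gene probe had a Pearson r of 0.48 and a Spearman rho of 0.45, and the signs were equal in 73.5%. For 438 on the other strand r was 0.07, rho was 0.00 and the signs were equal in 57.5%. In same-strand pairs 65.1% of lincRNA and 72.7% of gene differences were positive, and on the other strand 64.4% and 76.3%. Equal signs are therefore common even without a relation between the probes of a pair. Over all 2764 pairs within 10 kb r was 0.21 and rho 0.16. Leaving out gene probes that overlap a lincRNA probe, same-strand pairs inside an interval numbered 378 and had an r of 0.33 and a rho of 0.35, and the 252 on the other strand had 0.12 and 0.02. Without the arrays labelled WT 4 and Lck-/- 1, an alternative chosen after seeing the data, the 722 same-strand pairs had an r of 0.57 and a rho of 0.51, and the 438 on the other strand 0.28 and 0.10. These are descriptions over probes that share arrays, scaling and often a gene, and carry no p.

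**Figure D3:**
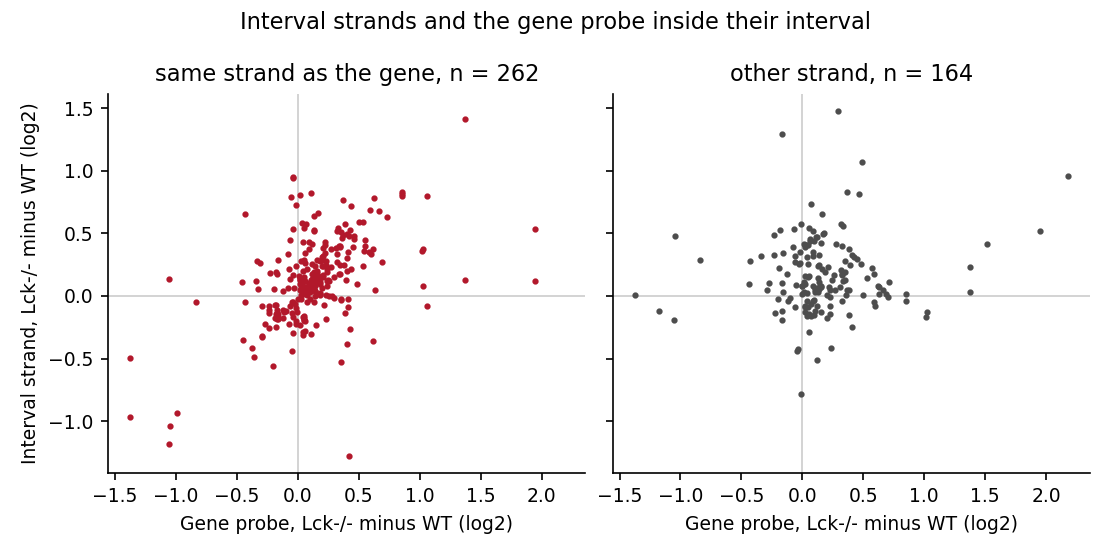
Lck-/- minus WT difference (log2) of each interval strand, averaged over its tested probes (y axis), against that of the gene probe inside the interval (x axis), with 262 interval strands on the strand of the gene and 164 on the other strand. The points lie along a rising diagonal on the same strand (Pearson r 0.50) and form a round cloud on the other (r 0.12). Where several tested gene probes lay inside, the one with the highest mean signal was used.

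An example chosen after the values were seen was Kifc1, a mitotic kinesin that bundles spindle microtubules. The interval chr17:34018371-34019394_R has a Kifc1 probe inside it and 3 lincRNA probes on the same strand. The probe at chr17:34018374-34018433 read 3.57, 2.88, 2.58 and 2.18 on the WT arrays and 2.14, 1.48 and 1.52 on the Lck-/- arrays, every Lck-/- array below every WT array. The 3 differences ran from -1.09 to -1.0, and the Kifc1 probe gave -1.05. The lincRNA probe with these values shares 59 of its 60 bases with that Kifc1 probe, so this pair is 1 sequence spotted as separate probes. Without WT 4 and Lck-/- 1 its difference was -1.51 (adjusted p = 0.233, limma). The 5 tested probes of chr10:117021051-117038683_F, where the pseudogene Kifc5c-ps lies, ran from -1.01 to -0.90. In the overlapping interval chr10:117027298-117032998_F, a probe identical over 60 bases to a Kifc5c-ps gene probe gave -0.50, while that gene probe gave -1.38. No adjusted p of limma was under 0.05 for any of these probes. Of the list of mitosis genes, 19 were tested, all 19 differences were negative, 13 had an unadjusted p under 0.05 in limma (1.47% of all probes tested were lower at that p) and the median was -1.04. Per array, the mean of the list relative to the WT mean was 0.85, -0.62, 0.45 and -0.67 in WT and -0.53, -1.41 and -1.48 in Lck-/-, and its part in the values of these intervals was not tested.

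No lincRNA probe differed between the groups after adjustment. Of the lincRNA probes, 5926, in 2251 intervals, were above background on at least 3 arrays and were tested together with 23137 probes that are not for lincRNAs and the lincRNA probes of the X chromosome. The filter was passed by 31 of them through the Lck-/- arrays alone and by 7 through the WT arrays alone. None had an adjusted p under 0.05 (limma, Benjamini-Hochberg over 29271 probes), as for all probes tested (0.0% called). At an unadjusted p under 0.05, 403 lincRNA probes were higher in Lck-/- (6.80%, against 5.33% of all probes tested) and 54 were lower (0.911%, against 1.47%). The groups did not overlap, with Lck-/- higher, for 340 of the 5488 lincRNA probes with a value on every array (6.20%, against 5.68% of all probes), and with Lck-/- lower for 54 (0.984%, against 1.61%). The median difference was 0.11 over lincRNA probes tested and 0.07 over all probes tested.

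Most of that median lay in dim probes and moved with the scaling. The lincRNA probes below -4 on the log2 scale had a median difference of 0.33, those from -4 to -3 had 0.14, those from -3 to -1 had 0.09 and those at -1 or above had 0.02. The other probes had 0.32, 0.17, 0.10 and 0.03 in the same ranges. With each array centred on its median the lincRNA median was -0.089 and the median of all probes -0.13, and 154 lincRNA probes were then higher and 167 lower at an unadjusted p under 0.05. With the authors' deposited values the lincRNA median was -0.0025 and the median of all probes 0.0011. The counts were then 139 higher and 92 lower, so the share of higher among them went from 88.2% to 60.2%, and with median centring to 48.0%.

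The 10 probes with the smallest unadjusted p among those above background on all 7 arrays are named here as a ranking and not as calls, since each had an adjusted p of 0.636 (limma, Benjamini-Hochberg). In 7 of them Lck-/- was higher. Without WT 4 and Lck-/- 1 all 10 kept their sign, with adjusted p from 0.145 to 0.418 in limma. The first, in chr13:73472571-73483846_F with Eprn inside on the other strand, read -3.0, -2.55, -2.59 and -2.16 on the WT arrays and -1.36, -1.68 and -1.58 on the Lck-/- arrays. All Lck-/- arrays lay above all WT arrays, by 1.03 between the means. A probe of chr2:167388900-167402475_R read -3.40, -3.52, -3.65 and -3.97, then -2.25, -2.85 and -2.76, a difference of 1.02 with groups that did not overlap. Of 2 probes of chr11:53596919-53672731_R, which spans the predicted gene Gm12216, the one at chr11:53596920-53596979 read -1.33, -1.66, -1.34 and -0.82, then -0.43, -0.28 and -0.20. Its difference was 0.98 and that of the neighbouring probe 1.19. Gene probes for Gm12216 outside the set gave 1.06 and -0.04. The remaining higher ones were in chr12:76769763-76770169_R (0.71), chr18:5951953-5952386_F (0.86, with WT 3 missing) and chr4:101010948-101032148_R (1.30). The lower ones were in chr3:87757295-87774970_F, chr12:52950465-52950990_R (-0.72) and chr8:19783770-19784669_R (-0.84). The first of these intervals lies 29 bp from a probe of the retinoic acid carrier gene Crabp2. Its ranked probe, which has no mapped position, read 1.29, 1.33, 1.84 and 1.48 in WT and 0.70, 0.75 and 0.32 in Lck-/-. Every Lck-/- array was below every WT array, with a difference of -0.90. Another probe of this interval strand, identical over 60 bases to a Crabp2 probe, gave -0.39, and that Crabp2 probe gave -0.50.

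NEAT1 was the named lincRNA with the largest difference. Its 5 probes, between chr19:5842534 and chr19:5842845, lie on the reverse strand. The probe shown above read 1.66, 0.74, 1.93 and 2.19 on the WT arrays and 3.38, 2.91 and 2.91 on the Lck-/- arrays. All 3 Lck-/- arrays were above all 4 WT arrays, and WT 2 was the lowest. The 5 differences ran from 1.40 to 1.44, but the probes lie side by side on 1 transcript and are not replicates. None passed adjustment (adjusted p = 0.636, limma, Benjamini-Hochberg), and for the probe shown the difference ran from 1.14 to 1.62 over the alternative settings, with a lowest adjusted p of 0.289, reached without WT 4 and Lck-/- 1, where the difference was 1.47. A Neat1 gene probe over the same stretch, sharing 30 bases with each of the probes it overlaps, gave 1.37 ± 0.35 (SE, n = 4 and 3, adjusted p = 0.636 in limma).

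Malat1, the neighbour of Neat1 on chromosome 19, gave 2 different readings. The 3 NEAT2 probes had differences of 0.12 to 0.14, and the groups overlapped. In the interval chr19:5801802-5802597_R, which lies inside the NEAT2 interval chr19:5795689-5802671 on the same strand, 3 probes had differences of 0.80 to 0.93. The probe shown above, at chr19:5802130-5802189, read 6.41, 6.79, 5.98 and 6.84 on the WT arrays and 7.55, 7.15 and 7.22 on the Lck-/- arrays. Here every Lck-/- array was above every WT array, with an adjusted p of 0.653 (limma, Benjamini-Hochberg), and without WT 4 and Lck-/- 1 the difference was 0.79. The 5 TUG1 probes had differences of -0.20 to -0.13, with adjusted p from 0.886 to 0.932 in limma.

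**Figure D4:**
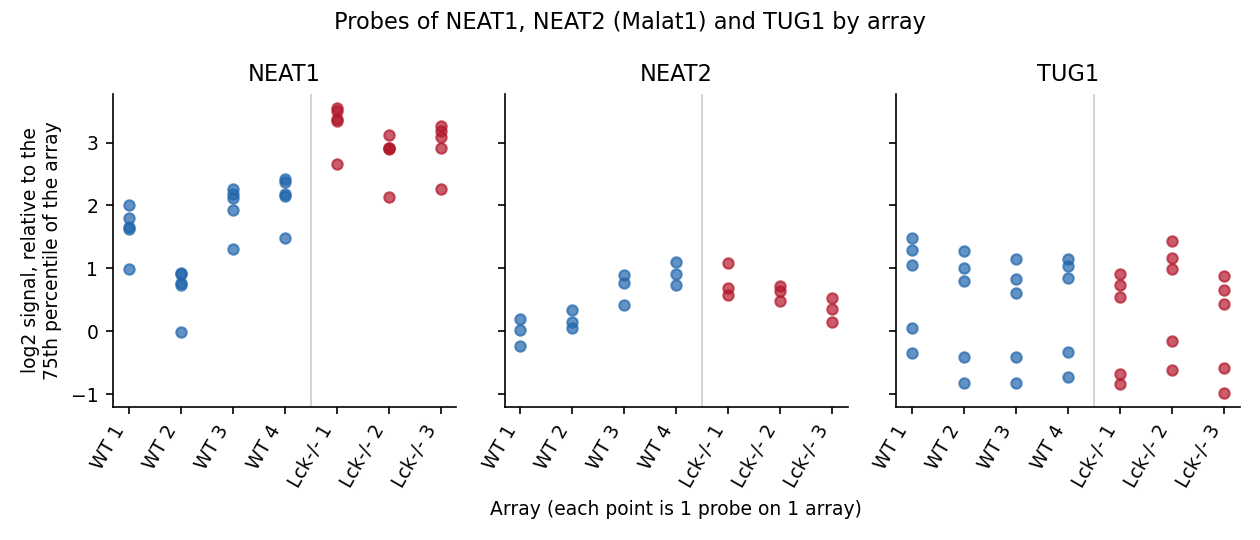
Signal of each probe of NEAT1 (5 probes), NEAT2 (3) and TUG1 (5) on each array (y axis, log2 relative to the 75th percentile of the array), with WT arrays left of the line and Lck-/- arrays right of it. NEAT1 points on the Lck-/- arrays lie above the same probes on every WT array, while NEAT2 and TUG1 overlap between the groups.

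A list of 65 named long noncoding RNA genes was read through gene probes outside the set. Of them 43 were on the array, 32 were tested, and 22 differences were positive and 10 negative, with a median of 0.12. Only Mir22hg (1.41), the host of a microRNA, and Neat1 (1.37) had an unadjusted p under 0.05 in limma, beside 5.33% of all probes tested that were higher at that p, none was lower, and none passed adjustment. The 6 named for their signal, several of which host small nucleolar RNAs, were Snhg6 (-0.05), 1500012F01Rik (0.09), Gas5 (0.13), Sra1 (0.18), Snhg3 (-0.43) and Snhg12 (0.09).

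Neighbouring probes of an interval strand gave a further reading. Among 849 interval strands with at least 3 probes tested, 298 had only positive differences, 92 only negative ones and 459 both. In 15 every probe had an unadjusted p under 0.05 in limma, 13 of them higher and 2 lower, a choice made after the values were seen. The 2 lower ones are the Kifc1 interval and chr10:117021051-117038683_F, both described above. The higher ones include NEAT1, the interval within NEAT2, the Gm12216 interval, and chr15:62007025-62090191_F, which spans Pvt1, a long noncoding RNA gene next to Myc. Its 3 probes had differences of 0.48 to 1.48, while a Pvt1 gene probe gave 0.10. In chr13:48620882-48643532_R the probe at chr13:48630909-48630968 read 0.58, -0.83, -0.43 and 0.21 on the WT arrays and 0.87, 0.57 and 0.57 on the Lck-/- arrays. WT 1 overlapped the Lck-/- arrays there.

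Some dim probes crossed the background limit in 1 group alone. Above background on all 3 Lck-/- arrays and on no WT array were 31 lincRNA probes (0.198%, against 0.153% of all probes), in 29 intervals. The reverse, all 4 WT arrays and no Lck-/- array, held for 0 lincRNA probes and for 2 of all 55681 (0.00359%). These probes were chosen by the flags of the groups, so their differences are a description with no test. The first of them, in chr5:125190100-125209625_R with Atp6v0a2, a proton pump subunit, inside, read -5.10, -5.19, -5.31 and -5.10 on the WT arrays and -3.40, -3.67 and -3.90 on the Lck-/- arrays. With the WT arrays not well above background the fold is a bound of at least 1.66-fold, against, on each WT array, the higher of its own value and the lowest signal above background. With the authors' deposited values its difference was 0.26. Over the 31 probes the bounds ran from at least 1.03-fold to at least 2.06-fold.

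Intervals beside T cell activation genes were looked at by a list. Within 10 kb of a gene of that list, which holds 184 genes, lay 25 intervals with 136 lincRNA probes, of which 35 were above background on all 7 arrays and 68 were tested. Of these, 41 differences were positive, 4 had an unadjusted p under 0.05 and were higher, none was lower at that p (5.33% and 1.47% of all probes tested), and the median was 0.08, beside 0.11 over all lincRNA probes tested. The first by signal was in chr10:96082444-96096696_R. A gene probe of Btg1, an inhibitor of proliferation, lies inside this interval on the other strand and had a difference of -0.01. The lincRNA probe read 2.89, 3.02 and 2.97 on WT arrays 1, 2 and 4, was missing on WT 3, and read 7.52, 2.64 and 4.41 on the Lck-/- arrays. The array labelled Lck-/- 1 was the highest. The difference of this lincRNA probe was 1.89 ± 1.11 (SE, n = 3 and 3, adjusted p = 0.802 in limma) and 0.56 without that array, or 0.57 without WT 4 and Lck-/- 1. The brighter probe of chr15:101084597-101095097_F, beside Nr4a1, a gene switched on by T cell receptor signals, read 1.73, 2.32, 2.03 and 2.11 in WT and 2.15, 2.05 and 2.30 in Lck-/-, and the groups overlapped. Probes beside Socs3 and Socs2, inhibitors of cytokine signalling, gave -0.10 and 0.62. Probes beside Junb and Egr3, transcription factors of the early response, gave -0.27 and 0.06. Those at Cd247, the zeta chain of the receptor, were on the strand opposite to the gene and gave -0.20 and -0.23. In chr1:167797581-167803031, which holds a Cd247 gene probe, the mean over tested probes was 0.05 on that strand. On the strand of Cd247 it was 0.25, and the gene probe gave 0.38. The one beside Zfp36l1, which promotes messenger RNA decay, gave 0.28.

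Leaving out the arrays labelled WT 4 and Lck-/- 1, whose Lck signal went against their labels, changed what was called. With 3 WT and 2 Lck-/- arrays left, 5 lincRNA probes passed an adjusted p of 0.05 (limma, Benjamini-Hochberg), among 47 of all probes. These arrays were picked by a signal, so the calls describe the arrays left and not the labelled groups. Both forward probes called in chr15:59966962-59972812 are far from genes, with the nearest gene probe, of 4933412E24Rik, at 119925 bp. The forward probe shown above read -6.27, -6.41, -7.07 and -1.38 on WT arrays 1 to 4 and -6.87, -0.82 and -2.05 on Lck-/- arrays 1 to 3. WT 4 was high with Lck-/- 2 and 3, and Lck-/- 1 was low with the rest of WT. It was above background on those 3 arrays alone and passed the filter only through them, where it was high. Its adjusted p is thus a description and no support for a difference. As WT 1 to 3 were not above background, the fold without the 2 arrays is a bound of at least 8.07-fold (adjusted p = 0.0267, limma), and with all 7 the adjusted p was 0.871 in limma. The other called forward probe had at least 8.41-fold (adjusted p = 0.0197, limma). Among the arrays left it was above background on both Lck-/- arrays and on no WT array. Its adjusted p is likewise a description and no support for a difference. On the reverse strand, 3 of the 5 probes were above background on all 7 arrays and their differences with all arrays ran from -0.05 to 0.22. The authors' deposited values gave 0.57 and 0.68 for the 2 forward probes with all arrays.

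**Figure D5:**
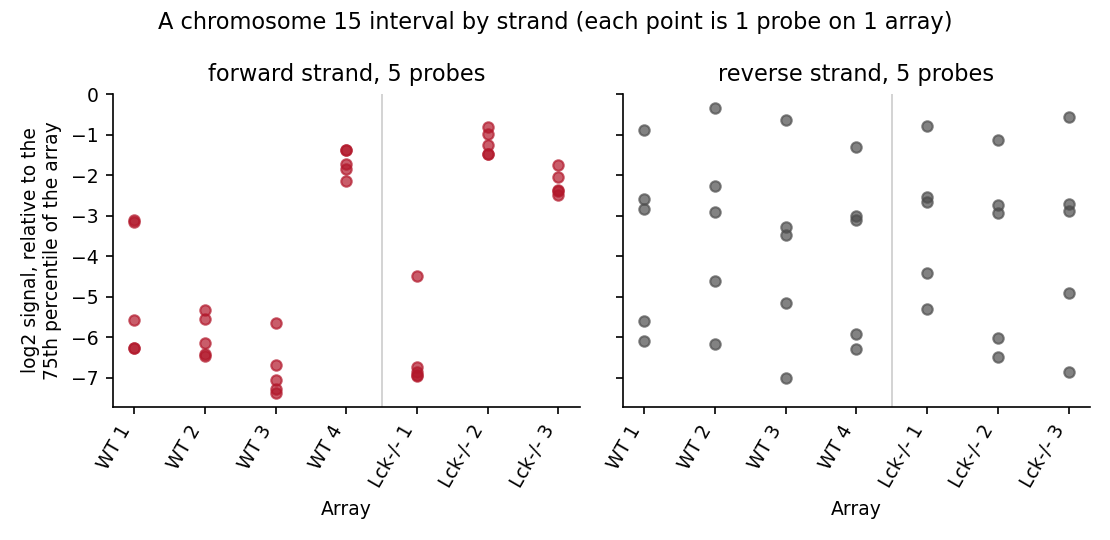
Signal of the 5 forward and 5 reverse probes of the chromosome 15 interval on each array (y axis, log2 relative to the 75th percentile of the array), with WT arrays left of the line and Lck-/- arrays right of it. The forward probes are high on WT 4, Lck-/- 2 and Lck-/- 3, and the reverse probes show no such step.

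The other probes called without these arrays were A_30_P01020865 in chr12:106566735-106624460_R, A_30_P01028819 in chr4:146345650-146356650_F and A_30_P01021230 in chr3:37659958-37665945_F. A gene probe of the lincRNA gene Tunar lies inside the chromosome 12 interval, on the opposite strand to the called probe. The chromosome 12 probe read -6.08, -6.11, -6.25 and -2.60 on the WT arrays and -5.66, -3.29 and -2.87 on the Lck-/- arrays, high on WT 4, Lck-/- 2 and Lck-/- 3. WT 1 to 3 were not above background, and without the 2 arrays it was at least 2.58-fold higher in Lck-/- (adjusted p = 0.0197, limma, and 0.855 with all 7). The chromosome 4 probe was at least 2.37-fold higher (adjusted p = 0.0308, limma, and 0.753 with all 7). The chromosome 3 probe went the other way and read -2.92, -3.01, -3.44 and -5.97 on the WT arrays and -5.55, -5.71 and -6.17 on the Lck-/- arrays, high on the first 3 WT arrays alone. No Lck-/- array was above background, and without the 2 arrays it was at least 2.90-fold lower in Lck-/- (adjusted p = 0.0312, limma, and 0.673 with all 7). The chromosome 12, chromosome 4 and chromosome 3 probes passed the filter only through the arrays where they were high. Their adjusted p values are thus a description and no support for a difference. The NK cell marker list, all 10 of whose genes were tested with positive differences and none at an unadjusted p under 0.05 in limma, had a mean relative to the WT mean of -0.82, -0.09, -0.80 and 1.72 on the WT arrays and 0.51, 2.18 and 0.59 on the Lck-/- arrays. It was highest on WT 4 and Lck-/- 2, and its part in these values was not tested.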

How the data were processed

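Each sample was read on 1 array of a 1-colour Agilent design, and all 7 shared 1 slide. The authors' deposited scanner files give spot intensity from Feature Extraction 10.7.3.1, per the file headers, with background already subtracted but no scaling between arrays. A value table on the log2 scale was also deposited by the authors; its normalization is not stated in the sources used here, and the tool named in the submitters' processing notes is limma. Coordinates are mm9, per the file headers and names.

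Outlier spots were left out, spots of a probe were averaged, and log2 of the processed intensity minus the array's 75th percentile (353.6 to 615.4) was used. A probe was well above background when the scanner's flag was set on the majority of its spots. Probes flagged on at least 3 of 7 arrays (29271) were fitted by lmFit with a two-sided eBayes test and Benjamini-Hochberg adjustment (limma 3.58.1, R 4.3.3). Of the lincRNA probes, 438 tested ones lacked a value on some array and 118 had no position. Shares per array were compared with an exact permutation test (35 splits, scipy 1.17.1). Gene names came from the files and the reference gene table of GRCm38.p6. Exons and untranslated regions under a probe were not analysed here.

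Named probes followed a written rule: those passing adjustment (none), the 10 brightest, the 10 with the smallest p on all 7 arrays, 5 intervals each with both strands or 1 strand detected, those detected in 1 group alone, and those beside T cell genes. Others were chosen after their values were seen, and 1 interval that the rule names is not reported here. The members, rules and gene lists were chosen with earlier results of these data known. Nothing says how the mice or cultures were split beyond biological replicates. Alternatives were other scalings, background corrections, filters, array weights, a replicate block and leaving out arrays. The number of arrays limits the precision. Arrays sharing a title number correlated at 0.040, 0.012 and -0.021 in their deviations from the group means, which gave no pairing of samples. The fit was also run on simulated data, and the outcome is not reported here.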

Additional observations from a re-analysis of the deposited data

Results flagged for a closer look

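Of 75 sets of 4 WT arrays examined, 4 had 1 array standing far from the others, measured as its gap to the nearest array divided by the range of the 4; chance gives about 1 in 20. In the probe of chr8:87504644-87513694_R beside Junb the ratio was 0.847, with WT 3 at 0.82 and the others at -0.51, -0.31 and -0.32. In the probe of chr14:70483555-70484159_F beside Egr3 it was 0.901, with WT 3 at -2.25 and the others between -2.05 and -2.02. In the NRON probe A_30_P01025636 it was 0.889, with WT 3 at -0.88 and the others between -1.74 and -1.65. In the BRN1-A (Pantr1) probe A_30_P01024930, above background on 1 array only, it was 0.831, with WT 1 at -2.27 and the others between -7.30 and -6.45. WT 3 had 1549 outlier-flagged spots, against 166 to 557 on the other arrays, and whether this bears on its values here was not tested.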

How the results depend on the processing

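No lincRNA probe passed adjustment under any alternative but 1: without WT 4 and Lck-/- 1 together, 4 were higher and 1 lower. The count higher at an unadjusted p under 0.05 (403) became 209 with probes above background on all 7 arrays, 139 with the deposited values, 154 with median centring, 641 with no filter, 150 with normexp and quantile normalization and 251 with quantile normalization. The count lower (54) became 100 with array weights, 92 with the deposited values, 167 with median centring, 245 with no filter, 118 with quantile normalization and 151 without WT 4 and Lck-/- 1. With the replicate number as a block, 462 were higher and 96 lower, and the block called no probe after adjustment. Leaving out 1 array at a time gave 223 to 600 higher and 17 to 127 lower, with 127 without Lck-/- 1 and 17 without Lck-/- 3. The median difference (0.11) was -0.089 with median centring, -0.0025 with the deposited values, 0.013 with normexp and quantile normalization and 0.030 with quantile normalization. In the last 3 of these settings the median of all probes was 0.0011, 0.014 and 0.023, so the lincRNA probes lay close to it. With 1 array left out the lincRNA median was 0.06 to 0.17. Intervals detected on both strands (589) became 352 on all 7 arrays, 887 on at least 1 array and 52 with every probe asked to pass. Spearman's rho of the lincRNA and nearest gene differences (0.16) was 0.11 up to 100 kb, 0.28 with the gene probe inside, 0.12 without overlapping gene probes and 0.25 without WT 4 and Lck-/- 1 (both chosen after seeing the data), and 0.11 to 0.23 with 1 array left out. The cause of these shifts was not tested. The difference in share above background ran from 3.05 to 11.27 points with 1 array left out. Of 3226 values of 204 named differences under the alternatives, 260 changed sign, none of them past the threshold, and 5 newly passed it. None could be lost or turned, since none had passed before. Most lincRNA probes lie near background, where signal over background limits what can be seen.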

Other observations

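Few lincRNA probes lay in a promoter. In windows from 250 bases before to 50 after a gene's start (RefSeq, GRCm38.p6, matched by sequence), 78 lay on the strand of the gene, 79 on the other strand and 4 on both, while 15503 matched none. The shares above background on all 7 arrays were 28.2% on the strand of the gene, 40.5% on the other strand and 24.4% with no match. By chromosome the share ran from 17.3% on chromosome 9 (127 of 736) to 34.2% on chromosome 19 (113 of 330).

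GC-rich lincRNA probes moved together across arrays. For the 111 lincRNA probes at or above 65% GC with a value above background on every array, the median signal relative to the probe's WT mean was -0.14, 0.20, -0.11 and -0.08 on WT arrays 1 to 4 and 0.12, -0.21 and 0.13 on the Lck-/- arrays. The 66 other probes in that range had -0.08, 0.16, -0.04 and -0.05, then 0.14, -0.14 and 0.14. For the 1268 lincRNA probes under 45% GC the values were -0.01, 0.06, -0.17 and 0.10, then 0.09, 0.08 and 0.04. Both groups held arrays on either side.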
